A study of Mus musculus with 4 samples.

Results

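Spatial expression of 9 genes of phosphate transport, Klotho and vitamin D metabolism was followed in mouse kidney. The genes, out of 32285 in the files, were taken by symbol: Slc34a1, Slc34a2, Slc34a3, Slc20a1, Slc20a2, Xpr1, Kl, Cyp27b1 and Cyp24a1. All 9 were present and all 9 passed the filter on low counts. RNA was captured with the Visium assay, in which a glass slide printed with barcoded spots collects the RNA of the tissue lying on each spot, from fresh frozen kidney sections of 10 µm. The Uox_KO group held 2 male mice of the C57BL/6J background that lacked exons 2 to 4 of Uox, the gene of urate oxidase. Urate oxidase degrades uric acid, and its loss is used as a model of hyperuricemia. The Control group held 2 male wild-type mice, labelled with the same background and from the same supplier, GemPharmatech. Each mouse gave 1 section, the labels give no age, and the section is the replicate (n = 2 per group).

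The kidney holds plasma phosphate in range by taking filtered phosphate back in the proximal tubule. Slc34a1 and Slc34a3 encode the sodium-phosphate cotransporters NaPi-IIa and NaPi-IIc of the proximal brush border, and parathyroid hormone and the bone hormone FGF23 lower the amount of both carriers. FGF23 acts through FGF receptors joined to Klotho, the product of Kl, which the distal tubule makes most strongly. Cyp27b1 encodes the enzyme that makes calcitriol, the active form of vitamin D, and Cyp24a1 encodes the enzyme that breaks it down. Slc34a2, the related carrier NaPi-IIb, is best known from gut and lung. Slc20a1 and Slc20a2 encode the widely expressed type III carriers PiT-1 and PiT-2, and Xpr1 encodes the phosphate exporter.

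The 3 genes of the Slc34 family differ in where they are expressed and in which way they moved, so the bases around their RefSeq start sites are shown, from GRCm38.p6, 5′ to 3′ on the strand of the gene. Start sites are those of the RefSeq promoter windows. The last 26 bases shown for Slc34a1 and the last 30 for Slc34a3 lie inside the annotated gene span, and none for Slc34a2. Capitals mark the only motifs searched for: the HNF1 half-site GTTAAT, which reads as ATTAAC on the opposite strand, and the nuclear receptor half-site AGGTCA, which reads as TGACCT on the opposite strand. HNF1 is a proximal tubule transcription factor. The stretch of Slc34a1 is chr13:55399398-55399647 on the + strand, that of Slc34a3 is chr2:25234241-25234484 on the - strand, and that of Slc34a2 is chr5:53049103-53049352 on the + strand.
Slc34a1: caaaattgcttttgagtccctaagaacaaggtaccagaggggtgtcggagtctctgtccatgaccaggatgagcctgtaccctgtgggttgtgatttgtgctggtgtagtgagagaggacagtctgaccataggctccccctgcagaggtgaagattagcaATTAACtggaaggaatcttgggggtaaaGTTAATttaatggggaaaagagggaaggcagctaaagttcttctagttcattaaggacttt
Slc34a3: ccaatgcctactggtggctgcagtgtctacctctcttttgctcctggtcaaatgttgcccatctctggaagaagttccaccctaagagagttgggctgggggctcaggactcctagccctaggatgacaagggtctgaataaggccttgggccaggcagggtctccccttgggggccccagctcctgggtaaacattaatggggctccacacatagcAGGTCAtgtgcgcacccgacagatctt
Slc34a2: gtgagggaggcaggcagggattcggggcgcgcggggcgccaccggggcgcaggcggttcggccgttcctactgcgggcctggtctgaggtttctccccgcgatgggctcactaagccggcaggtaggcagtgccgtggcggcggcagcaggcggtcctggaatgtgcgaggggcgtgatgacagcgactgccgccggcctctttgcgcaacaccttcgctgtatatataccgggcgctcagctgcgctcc
The Slc34a1 stretch held 2 HNF1 half-sites, which begin at -89 and -61 from the start site. Over the 250 bases before its RefSeq start site, Slc34a3 held 2 nuclear receptor half-sites, at -33 and at -6. Both lie inside the annotated gene span, and the second lies just past the stretch shown. Neither motif was found in the window of Slc34a2. Of the 32851 windows of the same length in the RefSeq table, 6.43% held the HNF1 half-site on either strand and 14.02% the nuclear receptor half-site. RefSeq windows were matched for 7 of the 9 genes, not for Slc20a2 and Cyp24a1. The nuclear receptor half-site was also found in the 2 windows of Slc20a1, at -26 and -75, and in that of Xpr1, at -124. The Slc20a1 window with the match at -75 lies inside the annotated gene span. The windows of Kl and Cyp27b1 held neither motif. A match is a match of letters only.

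In the GRCm38.p6 annotation, Slc34a1 (ENSMUSG00000021490) spans chr13:55399622-55414695, Slc34a3 (ENSMUSG00000006469) spans chr2:25228897-25234270 and Slc34a2 (ENSMUSG00000029188) spans chr5:53049353-53071664. Slc20a1 (ENSMUSG00000027397) spans chr2:129198773-129211615, Slc20a2 (ENSMUSG00000037656) spans chr8:22476700-22569616 and Xpr1 (ENSMUSG00000026469) spans chr1:155275657-155417444. Kl (ENSMUSG00000058488) spans chr5:150952607-150993817, Cyp27b1 (ENSMUSG00000006724) spans chr10:127048246-127054884 and Cyp24a1 (ENSMUSG00000038567) spans chr2:170482957-170497145. Levels are summed over each whole gene, and the counts do not separate exons or isoforms.

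The sections differed in depth and in the tissue they held. Control sections had 93524222 and 107962997 unique molecular identifiers (UMIs, 1 per captured RNA molecule) over 2528 and 3362 spots. Uox_KO sections had 53897511 and 57230517 UMIs over 2650 and 2590 spots. Inner medulla was nearly absent from Control: its markers Slc14a2 and Sptssb were at 0.0118 and 0.0101 CPM (UMIs per 1000000 UMIs) and at 0 and 0 CPM there, against 15.7 and 4.16 CPM and 11.8 and 6.28 CPM in Uox_KO. Spots with fat or urothelium markers made up 0.0791% and 0.476% of the Control spots and 12.1% and 14.6% of the Uox_KO spots. A UMI of Havcr1, a marker of injured proximal tubule, lay in 0.989% and 0.863% of the Control spots and in 35.2% and 34.6% of the Uox_KO spots. Markers of the proximal S1 segment summed to 1839 and 1678 CPM in Control and to 736 and 870 CPM in Uox_KO, fibroblast markers to 83.3 and 70.4 CPM and to 1270 and 962 CPM, and red blood cell markers to 5345 and 5024 CPM and to 281 and 792 CPM. Uox itself had 0 UMIs in all 4 sections, Control included, so its RNA does not check the labels here. Of the spot barcodes, 1713 occurred in all 4 sections. These are positions printed alike on every slide.

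To place the genes along the nephron, spots were grouped into 9 sets by segment markers that include none of the 9 genes. In each section, a spot joined a set when its marker share was in the top 10% for that segment and ranked highest there among the 9 segments. A spot covers several cells, so a set is enriched for a segment and not made of it. In Control, where Slc14a2 and Sptssb were at or near 0, the thin limb and inner medulla set rests on its other markers. A level in that Control set does not place a gene in the inner medulla. Slc34a1 UMIs were found in 100% of the spots of the proximal S1 set and also in 100% of the spots of the glomerulus set of both Control sections, although the glomerulus is not known to make this carrier. Each set was then compared with the mean of the other 8 sets over the 2 Control sections, with edgeR's quasi-likelihood test and Benjamini-Hochberg adjustment over all genes tested. The test covered 8 of the 9 genes and gave 32 calls at an adjusted p under 0.05. Of all 12795 genes tested, the share called was 37.3% in the proximal S1 set (19.0% higher, 18.3% lower), 56.8% in S3 (25.1% higher, 31.7% lower) and 25.9% in the glomerulus set (13.9% higher, 12.0% lower). It was 8.37% in the thin limb and inner medulla set (5.73% higher, 2.64% lower), 13.9% in the thick ascending limb set (8.43% higher, 5.44% lower) and 24.9% in the distal convoluted tubule set (12.9% higher, 12.0% lower). In the connecting tubule, principal cell and intercalated cell sets it was 28.0% (14.0% higher, 14.0% lower), 6.31% (4.55% higher, 1.77% lower) and 19.9% (10.1% higher, 9.82% lower).

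Both brush border carriers peaked in the S1 set of Control kidney, but they parted in S3. Slc34a1 stood at 7664 and 7756 CPM in the S1 set and at 5674 and 5674 CPM in the S3 set. Its S1 level was above the other sets by 0.68 on the log2 scale (SE 0.02, adjusted p = 1.96e-43), and its S3 level by 0.18 (SE 0.02, adjusted p = 1.45e-10). Slc34a3 stood at 93.7 and 81.3 CPM in the S1 set against 7.80 and 5.91 CPM in the S3 set, where it was lowest of all 9 sets. It was higher in S1 by 2.16 (SE 0.06, adjusted p = 1.13e-46) and lower in S3 by 1.97 (SE 0.11, adjusted p = 1.56e-27). For both genes, the highest set did not overlap with the next, whereas the sets ranked 2 to 7 for Slc34a3 overlapped with their neighbours.

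Slc34a2, at few UMIs, had a place of its own. It was highest in the thick ascending limb set, with 2.69 and 6.88 CPM from 15 and 47 UMIs, and lowest in S1, with 0.287 and 0.485 CPM from 2 and 4 UMIs. The thick ascending limb set was above the others by 2.35 (SE 0.29, adjusted p = 3.57e-10), although its 2 sections lay far apart. S1 was below them by 1.68 (SE 0.55, adjusted p = 0.0105).

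The type III carriers and the exporter varied little. Slc20a1 ranged from a mean of 15.4 CPM in the intercalated cell set to 20.3 CPM in the glomerulus set, all neighbouring sets overlapped and none was called. Slc20a2 was higher in S3, at 42.7 and 42.3 CPM (log2 difference 0.26, SE 0.06, adjusted p = 0.000253), and lower in the connecting tubule set, at 28.5 and 27.9 CPM (log2 difference -0.42, SE 0.09, adjusted p = 9.33e-05). Xpr1 was highest in S1, at 61.3 and 62.4 CPM (log2 difference 0.44, SE 0.06, adjusted p = 1.04e-09). It was also called higher in S3 and lower in the connecting tubule set. The connecting tubule call was lost with sets of 5% of the spots (-0.24).

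Kl showed a distal pattern over a broad base. Its level was 1307 and 1323 CPM in the connecting tubule set, 885 and 957 CPM in the intercalated cell set and 687 and 794 CPM in the distal convoluted tubule set. These 3 sets did not overlap with one another. The connecting tubule set was above the others by 1.34 (SE 0.03, adjusted p = 2.04e-55). The lowest sets were S3, thick ascending limb and glomerulus, with means of 392, 400 and 405 CPM that overlapped between neighbours. The S1 set held 528 and 526 CPM of Kl, below the mean of the other sets by 0.15 (SE 0.03, adjusted p = 0.000188).

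Of the vitamin D enzymes, Cyp24a1 was highest in S1, at 128 and 108 CPM (log2 difference 0.49, SE 0.05, adjusted p = 2.05e-15). It was also called higher in the glomerulus and thin limb sets and lower in S3, thick ascending limb, connecting tubule and principal cell sets. Since Control held almost no inner medulla, the thin limb call does not place Cyp24a1 in that segment. Sets of 5% of the spots ended the calls in the glomerulus, thin limb, thick ascending limb, connecting tubule and principal cell sets. Sets of 20% ended those in the thin limb and connecting tubule sets. Neither ended the call in S1. Cyp27b1 had 0 to 9 UMIs per set and section and could not be tested across sets. Its largest counts, 6 and 9 UMIs, were in S1.

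**Figure D1:**
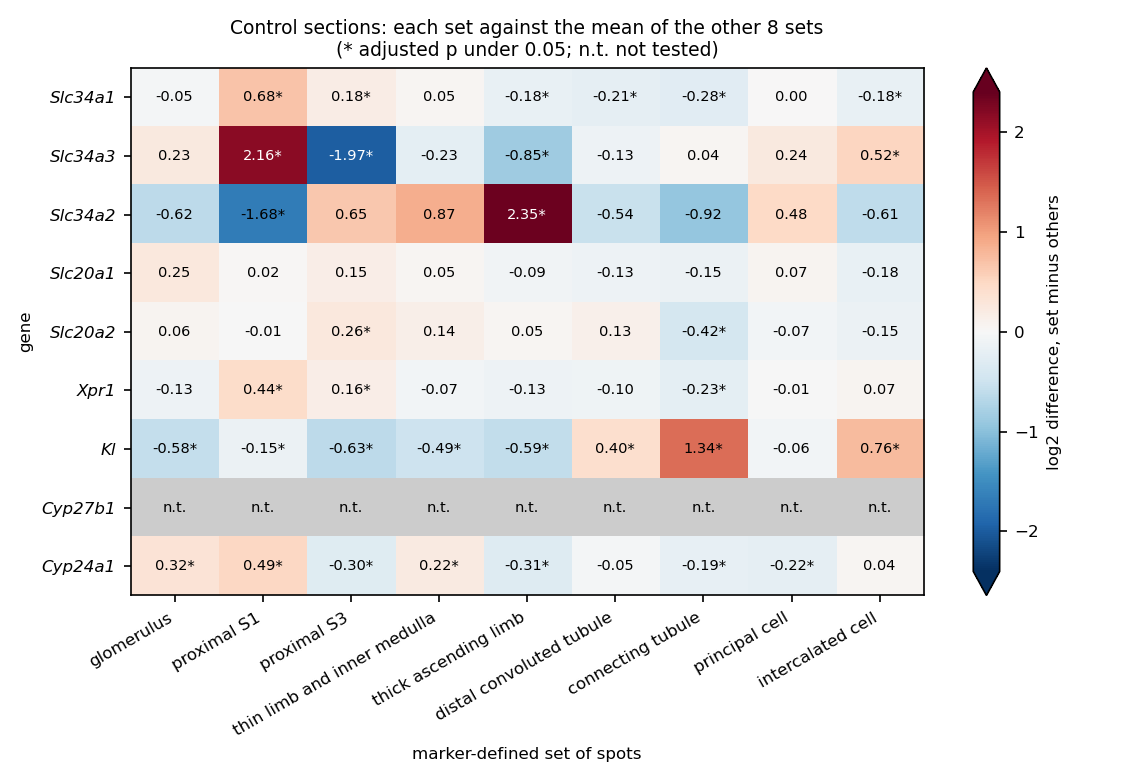
Heat map of the log2 difference between each marker-defined set of spots (columns) and the mean of the other 8 sets for the 9 genes (rows), over 2 Control sections. Slc34a1 and Slc34a3 have their highest value in S1 (0.68 and 2.16), Slc34a2 in the thick ascending limb set (2.35) and Kl in the connecting tubule set (1.34). Asterisks mark an adjusted p under 0.05 and n.t. marks a gene not tested.

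The genes most like each one were found by Pearson correlation of log2(CPM + 1) over the 18 Control sums (9 sets by 2 sections), which share library and depth, among genes that reached 10 CPM on average. For Slc34a1 they were Cltrn (r = 0.987), Neu1 (0.982) and Qdpr (0.977), and for Slc34a3 Spp2 (0.988), Gatm (0.983) and Sectm1b (0.981). Gatm is itself an S1 marker of the set. For Slc34a2 they were Cldn16 (0.868), Slc12a1 (0.864) and Cldn19 (0.858), all 3 of them markers that define the thick ascending limb set. For Kl they were Vdr (0.935), Hhatl (0.927) and Malrd1 (0.926). Vdr encodes the vitamin D receptor. For Xpr1 the list was Trip12 (0.908), Galnt3 (0.889) and Stx3 (0.882), for Slc20a2 Bud31 (0.905), Asb9 (0.814) and Zfp771 (0.814), for Cyp24a1 Tmem26 (0.862), Cyp4a12a (0.854) and Actn4 (0.824), and for Slc20a1 Klhl5 (0.804), Kremen1 (0.803) and Zyx (0.779). Among the 9 genes, Xpr1 and Slc34a1 were the closest pair (r = 0.80), and Kl and Slc20a2 the most opposed (r = -0.69).

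Between genotypes, UMIs were summed over each whole section and tested with the same edgeR test, Uox_KO against Control. All 9 genes passed the threshold, 6 lower and 3 higher, and in all 9 the Uox_KO sections lay outside the range of the Control sections. How many of all genes tested were separated in this way was not counted, so the separation does not set the 9 genes apart. The same threshold was passed by 67.1% of the 16369 genes tested, 34.6% higher and 32.5% lower, so being called is common here and the sizes carry more than the count. The median log2 difference was -0.47 over the 9 genes and 0.00 over all genes tested. By absolute log2 difference among all genes tested, Slc34a3 ranked in the top 2.76%, Slc34a2 in the top 10.8% and Cyp24a1 in the top 14.7%. Cyp27b1, Kl, Slc34a1 and Slc20a1 ranked at 17.8%, 19.8%, 23.4% and 26.2%. Xpr1 and Slc20a2 were of middling size, at 49.8% and 53.8%. In a whole section, fewer cells of a type and less RNA per cell cannot be told apart. The zone cut and the genotype cannot be told apart either, although without the spots with inner medulla, fat or urothelium markers all 9 genes kept their direction and their call. That alternative was chosen after the data were seen.

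Of the brush border carriers, Slc34a3 moved most. Slc34a3 stood at 29.9 and 26.4 CPM in the Control sections and at 1.06 and 1.90 CPM in the Uox_KO sections. That is 18.9-fold lower in Uox_KO (log2 difference -4.24, SE 0.20, adjusted p = 7.66e-06), and -4.07 without inner medulla, fat and urothelium spots. Slc34a1 stood at 6242 and 6095 CPM in Control and at 2518 and 2906 CPM in Uox_KO, 2.27-fold lower (log2 difference -1.19, SE 0.11, adjusted p = 0.000103), and -1.01 without those spots. Both genes were well separated between groups, and all 7 S1 markers were called lower in the same sections. The part of the S1 markers' fall in these values was not tested in whole sections.

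Slc34a2 went the other way, from 1.21 and 1.43 CPM in Control to 7.89 and 4.76 CPM in Uox_KO. It was 4.77-fold higher (log2 difference 2.25, SE 0.26, adjusted p = 0.000289). The Uox_KO sections differed from each other but both lay above Control. With Havcr1 UMI spots left out of all sections the difference was 1.48, still called, and without inner medulla, fat and urothelium spots it was 2.28. All 5 injured tubule markers were higher in the same sections, with sums of 6.02 and 5.71 CPM in Control and of 352 and 314 CPM in Uox_KO.

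The type III carriers split. Slc20a1 stood at 19.4 and 19.1 CPM in Control and at 40.0 and 40.3 CPM in Uox_KO, 2.08-fold higher (log2 difference 1.06, SE 0.05, adjusted p = 1.01e-05). The sections of a group nearly coincided. Slc20a2 stood at 40.7 and 41.3 CPM in Control and at 32.4 and 28.9 CPM in Uox_KO, 1.34-fold lower (log2 difference -0.42, SE 0.07, adjusted p = 0.00160). The exporter Xpr1 stood at 56.0 and 51.8 CPM against 38.9 and 38.9 CPM, 1.39-fold lower (log2 difference -0.47, SE 0.06, adjusted p = 0.000517). These were the smallest differences of the 9 genes.

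Kl stood at 548 and 567 CPM in Control and at 154 and 270 CPM in Uox_KO, 2.63-fold lower (log2 difference -1.39, SE 0.23, adjusted p = 0.00180). The Uox_KO sections differed from each other far more than the Control sections did. The value was -1.04 without Uox_KO section 1 and -1.85 without Uox_KO section 2, and both were called. Of the 5 connecting tubule markers, 1 was called lower and 4 were not called. Their sums were 5416 and 7864 CPM in Control and 1805 and 4967 CPM in Uox_KO, so Uox_KO section 1 was lowest for the markers as for Kl.

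The vitamin D enzymes moved apart. Cyp24a1 stood at 135 and 109 CPM in Control and at 36.0 and 34.6 CPM in Uox_KO, 3.46-fold lower (log2 difference -1.79, SE 0.11, adjusted p = 1.79e-05). Cyp27b1 stood at 0.459 and 0.465 CPM in Control, from 39 and 46 UMIs, and at 1.16 and 1.53 CPM in Uox_KO, from 70 and 94 UMIs. It was 2.91-fold higher (log2 difference 1.54, SE 0.23, adjusted p = 0.000991). So the gene of the activating enzyme was higher and that of the degrading enzyme lower in both Uox_KO sections.

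**Figure D2:**
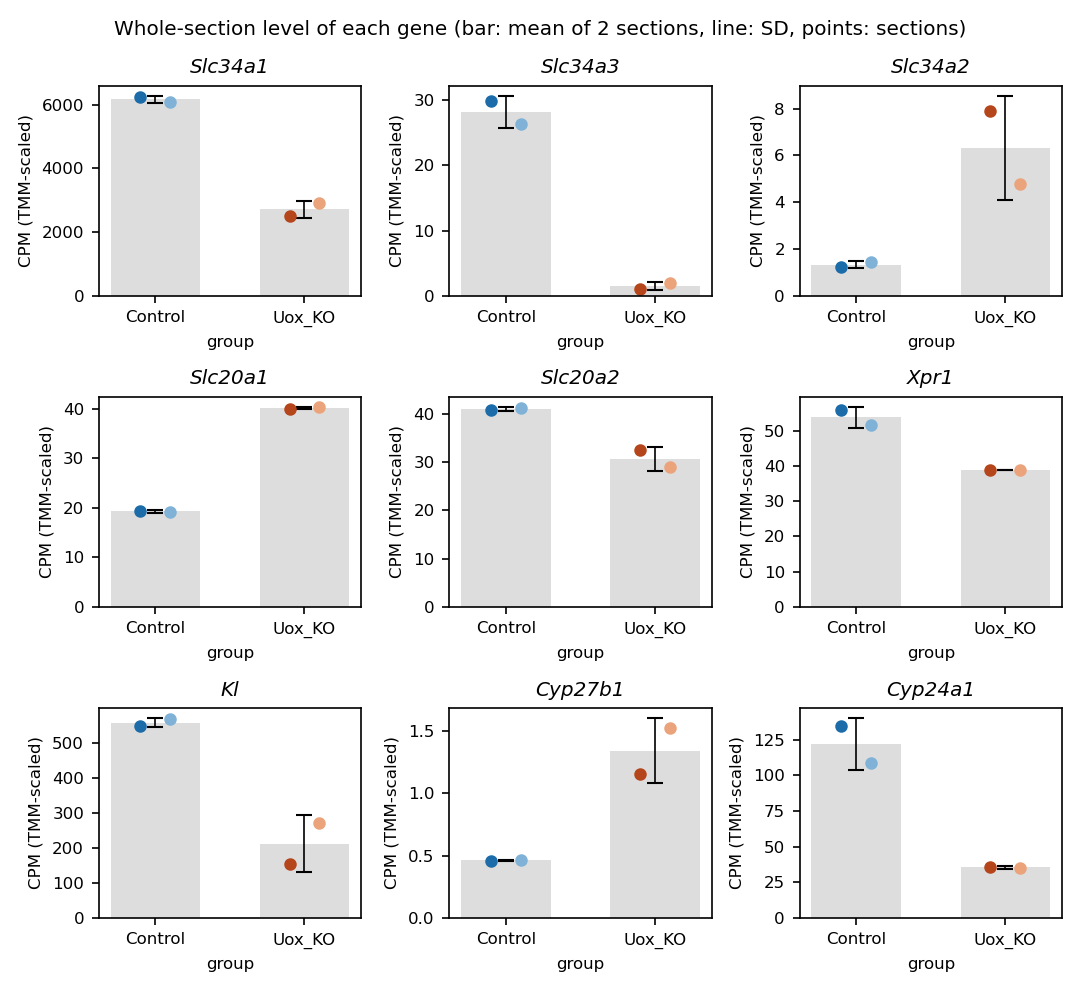
Level of each gene in CPM over whole sections, 1 panel per gene. Points are sections (darker: replicate 1, lighter: replicate 2), bars are means of 2 sections and lines are SDs. Both Uox_KO points of Slc34a1, Slc34a3, Slc20a2, Xpr1, Kl and Cyp24a1 lie below both Control points, and those of Slc34a2, Slc20a1 and Cyp27b1 lie above them.

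The comparison was repeated within each of the 9 sets. Of 67 tests of a gene in a set, 13 were called higher, 42 lower and 12 were not called. Among those called higher, Cyp27b1 in S1 and Slc34a2 in the thin limb and inner medulla set passed the filter only through Uox_KO. Of all genes tested, 41.6% were called in the S1 set (22.3% higher, 19.4% lower), 40.7% in S3 (21.4% higher, 19.3% lower) and 54.5% in the glomerulus set (28.0% higher, 26.5% lower). The shares were 53.9% in the thin limb and inner medulla set (28.2% higher, 25.7% lower), 43.0% in the thick ascending limb set (22.2% higher, 20.8% lower) and 35.0% in the distal convoluted tubule set (17.8% higher, 17.2% lower). In the connecting tubule, principal cell and intercalated cell sets they were 27.7% (13.8% higher, 13.9% lower), 32.6% (17.0% higher, 15.6% lower) and 31.1% (16.4% higher, 14.7% lower). S1 markers made up 0.447% and 0.406% of the UMIs of the S1 set in Control and 0.213% and 0.214% in Uox_KO. Principal cell markers made up 0.126% and 0.146% of their set in Control and 0.298% and 0.265% in Uox_KO, and glomerulus markers 0.133% and 0.133% against 0.168% and 0.185%. Such a share moves with the cells under the spots and with the marker RNA per cell, which cannot be told apart. The thin limb and inner medulla set does not compare the same tissue, since Slc14a2 and Sptssb were at or near 0 in Control. The part of these marker shares and of the zone in the set results was not tested.

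Slc34a3 was lower in Uox_KO in all 9 sets. In S1 it stood at 89.1 and 77.4 CPM in Control and at 5.31 and 8.33 CPM in Uox_KO (log2 difference -3.58, SE 0.15, adjusted p = 1.27e-20). In S3 it stood at 7.28 and 5.52 CPM against 0.514 and 0.736 CPM, from 73 and 65 UMIs against 4 and 5 UMIs (log2 difference -3.34, SE 0.37, adjusted p = 0.000334). The sets other than S1 and S3 rest on 0 to 13 UMIs per Uox_KO section. With 1 section left out, the difference stayed between -4.36 and -4.09 in the distal convoluted tubule set and between -4.04 and -3.55 in the glomerulus set. It moved most in 4 other sets. In the thick ascending limb set the difference was -2.98, with -2.23 without Uox_KO section 1 and -4.42 without Uox_KO section 2. In the connecting tubule set Uox_KO section 1 had 0 UMIs, and the difference was -4.84 with both sections, -4.05 without Uox_KO section 1 and -9.55 without Uox_KO section 2, a fitted value that is no bound. Without Uox_KO section 2 it was also larger in the principal cell set (-5.78 against -4.44) and the intercalated cell set (-5.49 against -4.36). All of these were called lower.

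Slc34a1 was also lower in all 9 sets, but least where it is most expressed. In S1 it stood at 7288 and 7384 CPM in Control and at 5657 and 5751 CPM in Uox_KO, a log2 difference of -0.36 (SE 0.07, adjusted p = 0.000129). In S3 it stood at 5295 and 5295 CPM against 1625 and 3402 CPM (log2 difference -1.07, SE 0.28, adjusted p = 0.0167), a call that was lost without either Control section, at -1.08 both times. It was -1.69 without Uox_KO section 2 and -0.63 without Uox_KO section 1, both called. The glomerulus set gave 6194 and 6277 CPM against 2475 and 1957 CPM (log2 difference -1.49, SE 0.11, adjusted p = 2.14e-17). In sets outside the proximal tubule a spot can also cover proximal tubule, and its Slc34a1 UMIs cannot be assigned to a cell type.

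Slc34a2 had enough UMIs for a test in 3 sets and was called higher in each. In the thin limb and inner medulla set Slc34a2 passed the filter only through Uox_KO, where it is high, so that call adds no separate support. In S3 it went from 1.79 and 1.44 CPM to 8.35 and 5.0 CPM (log2 difference 2.06, SE 0.34, adjusted p = 0.00197). In the thin limb and inner medulla set it went from 2.05 and 2.59 CPM to 20.4 and 9.63 CPM (log2 difference 2.67, SE 0.46, adjusted p = 0.000793), and the difference was 2.00 without Uox_KO section 1 and 1.60 without Havcr1 UMI spots. In the thick ascending limb set, its peak in Control, it went from 2.89 and 7.35 CPM to 12.3 and 9.67 CPM (log2 difference 1.05, SE 0.33, adjusted p = 0.0183). That last call was lost without Control section 1 (0.57), without Havcr1 UMI spots (0.74) and with sets of 5% of the spots (0.81), and the value was 1.91 without Control section 2. In S1 its UMIs were 2 and 4 in Control and 18 and 6 in Uox_KO, too few to test.

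Slc20a1 was higher in all 9 sets, from 0.71 in the principal cell set to 1.37 in S1. In S1 it went from 15.0 and 18 CPM to 42.3 and 43.5 CPM (log2 difference 1.37, SE 0.13, adjusted p = 2.82e-11). Leaving out 1 section ended its call in the connecting tubule set (0.70 without Control section 1, 0.79 without Uox_KO section 2), in the intercalated cell set (0.80 and 0.90 without either Control section) and in the distal convoluted tubule set (0.58 without Control section 2). Without Havcr1 UMI spots it was no longer called in the thin limb (0.46), connecting tubule (0.59) and principal cell (0.56) sets.

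For Slc20a2 and Xpr1 no difference was called in S1. Xpr1 had 58.3 and 59.4 CPM in Control and 58.4 and 60.8 CPM in Uox_KO there (log2 difference 0.02, SE 0.10, adjusted p = 0.900), and Slc20a2 had 30.2 and 38.0 CPM against 37.2 and 36.2 CPM (log2 difference 0.10, SE 0.12, adjusted p = 0.559). The groups overlapped for both genes. Each was called lower in 5 sets and not called in 4. For Xpr1 the largest fall outside the thin limb set was in the intercalated cell set, from 63.9 and 51.5 CPM to 30.7 and 35.5 CPM (log2 difference -0.79, SE 0.19, adjusted p = 0.00724), which was not called without Control section 1, at -0.65. For Slc20a2 the distal convoluted tubule and intercalated cell sets had the same value, -0.65. The distal convoluted tubule set went from 40.1 and 40.5 CPM to 26.2 and 25.1 CPM (SE 0.15, adjusted p = 0.000954), a call that no left-out section ended. The other calls of Slc20a2 each depended on a section: the intercalated cell set was not called without Control section 1 (-0.51), Control section 2 (-0.81) or Uox_KO section 2 (-0.48), nor was the glomerulus set (-0.38) without Control section 2 (-0.22), Uox_KO section 1 (-0.45) or Uox_KO section 2 (-0.33). The thick ascending limb set (-0.43) was not called without Control section 2 (-0.33) or Uox_KO section 2 (-0.36), nor the thin limb set (-0.61) without Control section 1 (-0.60). For Xpr1, the principal cell call (-0.44) was lost without any 1 of Control section 1 (-0.47), Control section 2 (-0.44) and Uox_KO section 1 (-0.35), and the thick ascending limb call (-0.40) without Control section 2 (-0.40) or without Havcr1 UMI spots (-0.29). Without Havcr1 UMI spots the Slc20a2 calls in the glomerulus (-0.39) and intercalated cell (-0.53) sets were lost as well.

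Kl was called lower in the glomerulus, S1, S3, thin limb and thick ascending limb sets and was not called in the 4 distal sets, which include the 3 where it is highest. In S1 it went from 503 and 501 CPM to 180 and 207 CPM (log2 difference -1.37, SE 0.08, adjusted p = 3.67e-17). The glomerulus set gave 518 and 504 CPM against 97.3 and 133 CPM (log2 difference -2.14, SE 0.11, adjusted p = 4.78e-23), and S3 and the thick ascending limb set gave -1.42 and -1.61. In the connecting tubule set Kl stood at 1418 and 1429 CPM in Control and at 1196 and 2105 CPM in Uox_KO (log2 difference 0.22, SE 0.20, adjusted p = 0.459). The 2 Uox_KO sections lay on either side of Control there. The distal convoluted tubule, principal cell and intercalated cell sets gave -0.29, -0.31 and -0.44, none called, and in each the groups overlapped because Uox_KO section 2 was high. Connecting tubule markers made up 3.92% and 4.75% of their set in Control and 3.20% and 6.31% in Uox_KO. For distal convoluted tubule markers the shares were 0.308% and 0.385% against 0.239% and 0.290%. Intercalated cell markers gave 0.206% and 0.242% against 0.0822% and 0.161%. Principal cell markers had the larger share in Uox_KO section 1. The part of these shares in the Kl values was not tested.

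Because only 2 Uox_KO sections bear on these 4 sets, their values turn on 1 of them. Without Uox_KO section 2 the connecting tubule difference was -0.23, and without Uox_KO section 1 it was 0.55 and called higher. In the intercalated cell set it was -1.75 without Uox_KO section 2, which was called lower, and 0.24 without Uox_KO section 1. The distal convoluted tubule and principal cell sets were called lower without Uox_KO section 2, at -0.75 and -0.98.

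Cyp24a1 was lower in all 9 sets. The S1 set showed the smallest fall, from 121 and 102 CPM to 83.4 and 67.5 CPM (log2 difference -0.57, SE 0.10, adjusted p = 8.46e-06). The intercalated cell set showed the largest, from 113 and 94.3 CPM to 20.2 and 18.4 CPM (log2 difference -2.42, SE 0.20, adjusted p = 3.45e-06). Cyp27b1 could be tested in S1 only, where it went from 0.820 and 1.04 CPM to 3.23 and 3.05 CPM, from 6 and 9 UMIs to 14 and 15 UMIs (log2 difference 1.72, SE 0.43, adjusted p = 0.00123). It passed the filter there only through Uox_KO, where it is high, so this call adds no separate support.

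**Figure D3:**
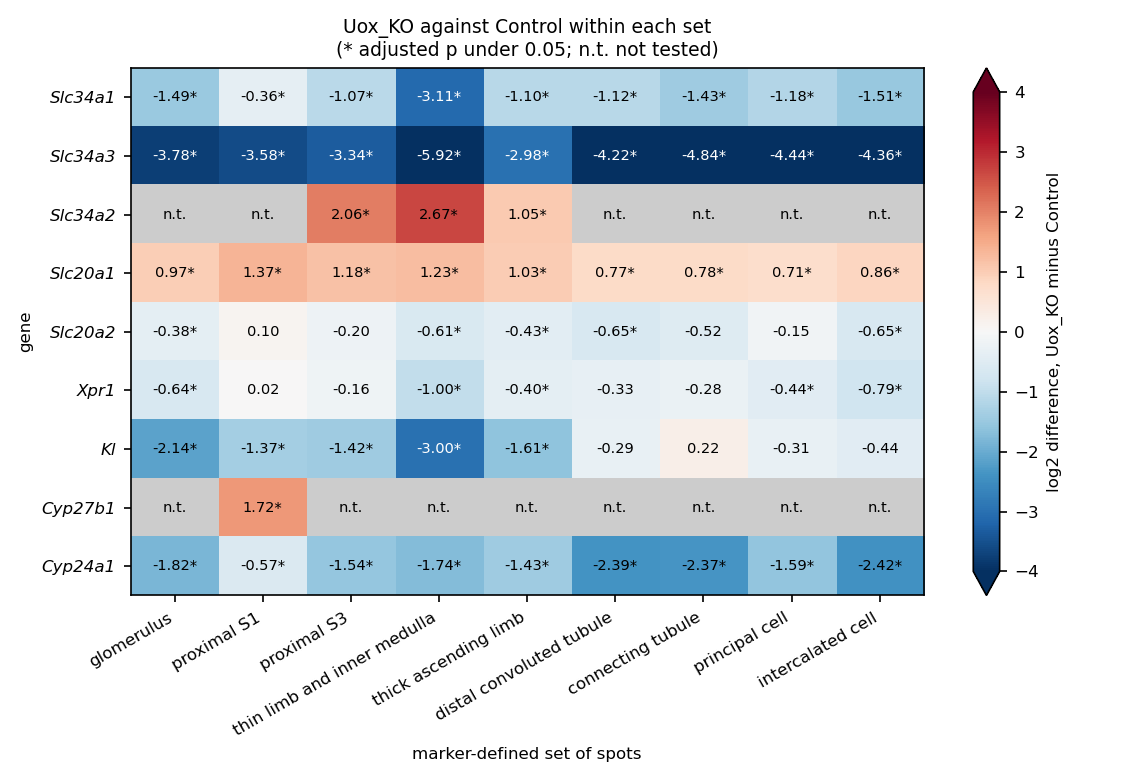
Heat map of the log2 difference between Uox_KO and Control for the 9 genes (rows) within each marker-defined set of spots (columns), 2 sections per group. Slc34a3, Slc34a1 and Cyp24a1 are lower in all 9 sets, Slc20a1 is higher in all 9, and Kl is near 0 in the connecting tubule set (0.22). Asterisks mark an adjusted p under 0.05 and n.t. marks too few UMIs for a test; colours saturate at 4.

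**Figure D4:**
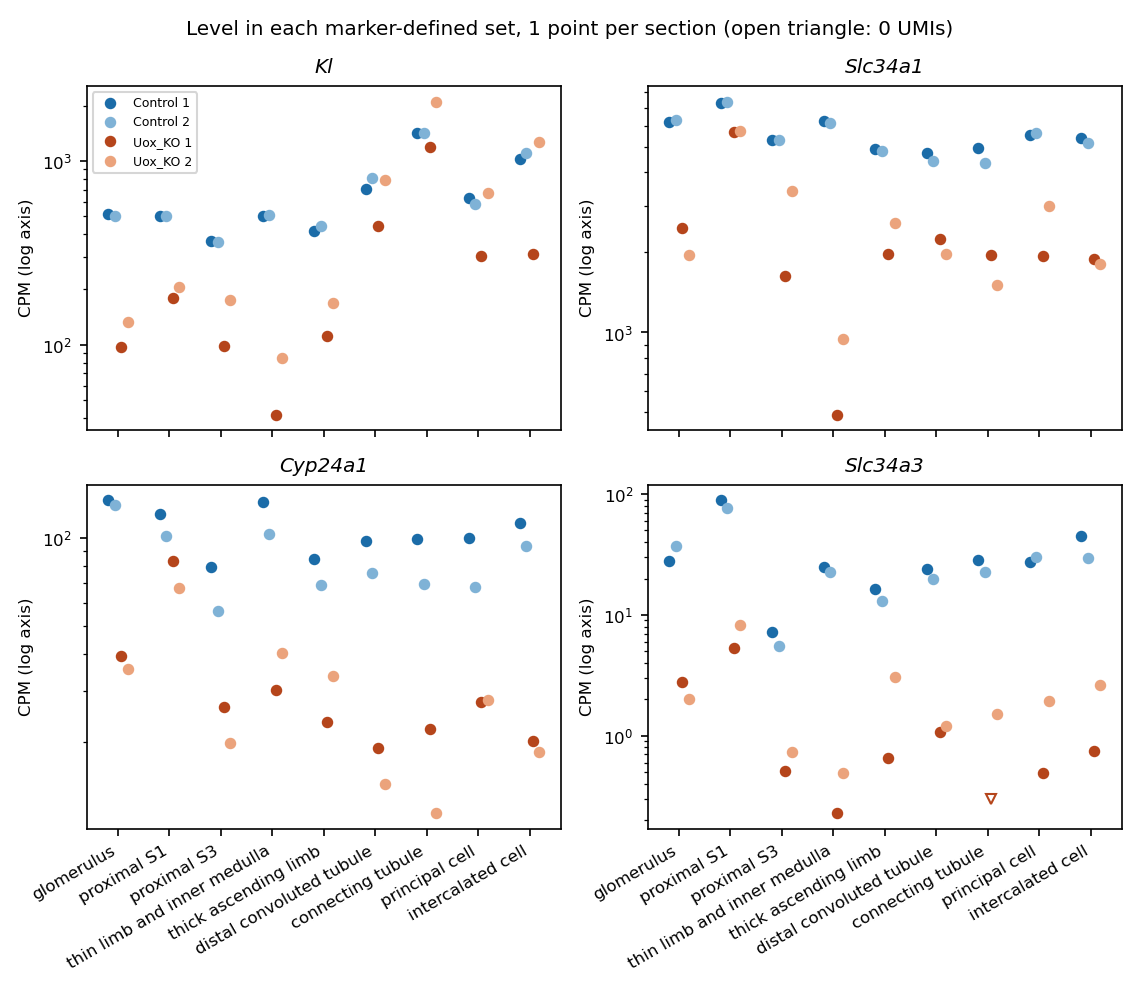
Level of Kl, Slc34a1, Cyp24a1 and Slc34a3 in CPM (log axis) in each marker-defined set, 1 point per section, blue for Control and brown for Uox_KO, scaled within each set so that points compare within a set; an open triangle marks 0 UMIs. For Kl the groups part in the proximal sets and overlap in the 4 sets on the right, where Uox_KO section 2 is at or above Uox_KO section 1; for Slc34a1 they are closest in S1.

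Whether a gene's genotype difference itself differed between sets was tested in 1 edgeR fit of the 36 sums with the mouse as a block. Of all 13998 genes tested, 32.4% were called. Among the 9 genes, Kl (adjusted p = 3.53e-11), Slc34a1 (1.71e-07), Cyp24a1 (2.75e-07), Xpr1 (4.01e-05) and Slc20a2 (0.00476) were called. Slc34a3 (0.0761), Slc34a2 (0.192), Slc20a1 (0.411) and Cyp27b1 (0.580) were not. With sets of 5% of the spots, Xpr1 and Slc20a2 lost the call and Slc34a3 gained it. Slc34a3 also gained it without the glomerulus set (F = 3.54), and Slc34a2 gained it with sets of 20% (F = 4.05).

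Each set was also compared with the mean of the other sets. In S1, 4 of the 9 genes were called. Its log2 genotype difference was higher by 1.15 for Slc34a1 (SE 0.21, adjusted p = 6.09e-05), by 1.34 for Cyp24a1 (SE 0.14, adjusted p = 3.35e-09), by 0.55 for Slc20a2 (SE 0.12, adjusted p = 0.000644) and by 0.53 for Xpr1 (SE 0.10, adjusted p = 0.000101). In this contrast 19.5% of all genes were called for S1. In the thin limb and inner medulla set, where zones differ, 4 genes had a lower genotype difference: Kl by -2.10 (SE 0.22, adjusted p = 1.68e-09), Slc34a1 by -2.00 (SE 0.21, adjusted p = 4.25e-09), Slc34a3 by -1.96 (SE 0.71, adjusted p = 0.0408) and Xpr1 by -0.63 (SE 0.13, adjusted p = 0.000353), with 24.0% of all genes called. In S3, Xpr1 was called higher by 0.32 (SE 0.09, adjusted p = 0.0215), with 11.0% of all genes called. For Kl the difference was higher in the connecting tubule set by 1.57 (SE 0.19, adjusted p = 5.60e-07), in the distal convoluted tubule set by 1.01 (SE 0.19, adjusted p = 0.000433) and in the principal cell set by 0.91 (SE 0.19, adjusted p = 0.00855), where 2.07%, 4.81% and 0.672% of all genes were called. Kl was also lower in the glomerulus set by -1.11 (SE 0.22, adjusted p = 0.000869), with 12.2% of all genes called. These per-set contrasts were added after the data were seen.

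Measured against the tubule markers of the same section, the genes parted. Slc34a1 had 3085 and 3326 UMIs per 1000 UMIs of S1 markers in Control and 3816 and 3596 in Uox_KO, so relative to those markers it was not lower. Slc34a3 had 14.8 and 14.4 per 1000 against 1.61 and 2.35, so it was lower on this scale too. Cyp24a1 had 66.8 and 59.6 against 54.6 and 42.8, a smaller gap than in CPM. Per 1000 UMIs of connecting tubule markers, Kl had 91.9 and 66.1 in Control and 95.2 and 58.6 in Uox_KO, and the groups overlapped. Against S3 markers, Slc34a1 had 2916 and 3192 UMIs per 1000 in Control and 2296 and 3282 in Uox_KO, which also overlapped. Slc20a1 had 9.58 and 10.4 per 1000 S1 marker UMIs in Control and 60.6 and 49.8 in Uox_KO. Slc34a2, Slc20a2, Xpr1 and Cyp27b1 were higher per S1 marker UMI in both Uox_KO sections, among them Xpr1 with 27.7 and 28.3 against 58.9 and 48.1. Per 1000 S1 marker UMIs, Kl had 271 and 310 against 233 and 335. These ratios are descriptions without a test, and the markers themselves differ between genotypes. The Kl ratio to connecting tubule markers was added after the data were seen.

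The share of spots with a UMI was compared after thinning every spot to 5000 UMIs, since Uox_KO spots were shallower. This left out 6 and 4 Control spots and 293 and 152 Uox_KO spots. Slc34a3 was detected in 14.1% and 13.0% of Control spots and in 0.721% (95% interval 0.421 to 1.15%, Clopper-Pearson, counting error only) and 1.27% of Uox_KO spots. Before thinning these shares were 50.5% and 44.9% against 2.23% and 3.67%. In the S3 set, where Slc34a3 is lowest, 27.6% and 16.7% of the Control spots had a UMI before thinning, against 86.3% and 85.4% in the S1 set.

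Kl was detected in 88.5% and 88.4% of the thinned Control spots and in 46.8% and 58.0% of the Uox_KO spots, against 99.8% and 99.8% and 73.7% and 85.8% before thinning. Cyp24a1 went from 42.9% and 35.9% to 16.5% and 15.7%, against 92.5% and 85.3% and 37.8% and 40.1% before thinning. Slc34a1 stayed in nearly every spot, at 100% and 100% against 94.4% and 97.9%, with 100% and 100% against 98.9% and 99.9% before thinning.

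Slc20a1 went from 8.96% and 8.55% to 19.0% and 20.1% of thinned spots, a gap that was small before thinning, at 45.8% and 42.1% against 48.3% and 49.3%. Slc34a2 went from 0.317% and 0.536% to 3.56% and 2.01%, against 3.92% and 3.78% and 12.2% and 8.49% before thinning. Cyp27b1 went from 0.357% and 0.208% to 0.721% and 1.03%, against 1.50% and 1.31% and 2.42% and 3.24% before thinning. Xpr1 went the other way, with 22.2% and 21.2% against 18.6% and 17.8%. Slc20a2 was slightly lower, with 16.3% and 16.6% against 15.0% and 15.3%. For Slc20a2 the exact binomial intervals of all sections overlapped, and for Xpr1 those of some. Thinned to 2000 UMIs, Slc20a2 stood at 6.93% and 6.64% in Control and at 6.12% and 6.47% in Uox_KO. Thinned to 10000 UMIs, it stood at 30.4% and 30.1% against 31.0% and 26.9%, so its fall did not hold in both Uox_KO sections. Before thinning, Xpr1 was at 82.2% and 74.7% against 50.3% and 51.5%, and Slc20a2 at 72.3% and 67.3% against 44.1% and 44.1%.

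**Figure D5:**
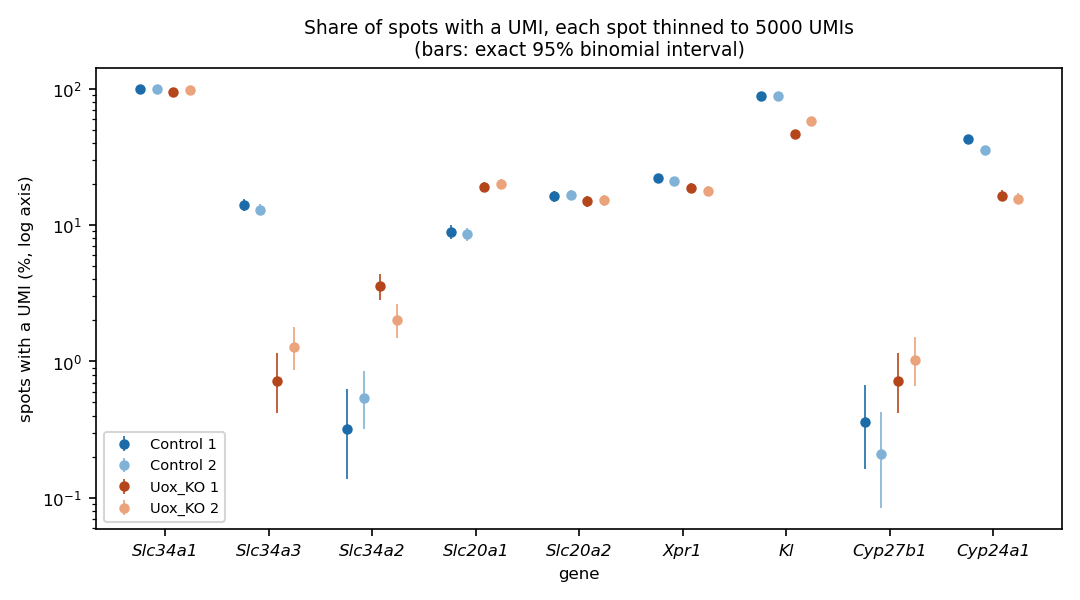
Share of spots with at least 1 UMI of each gene (%, log axis) after thinning each spot to 5000 UMIs, 1 point per section with its exact 95% binomial interval. Slc34a3 falls from 14.1% and 13.0% in Control to 0.721% and 1.27% in Uox_KO, and Slc20a1 lies above Control in both Uox_KO sections.

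Within each Uox_KO section, spots with a Havcr1 UMI were set beside spots without one. Spots with a Havcr1 UMI were deeper, with medians of 24646 and 26543 UMIs against 13002 and 15861 UMIs. Slc34a2 stood at 13.0 and 8.50 CPM in Havcr1 UMI spots of Uox_KO sections 1 and 2 and at 5.39 and 2.66 CPM in the others. Slc20a1 stood at 51.5 and 55.3 CPM against 38.9 and 34.6 CPM. Cyp27b1 stood at 1.57 and 2.20 CPM against 1.08 and 1.24 CPM, from 38 and 53 UMIs against 32 and 41 UMIs. All 3 genes that rose in Uox_KO were thus higher in spots with this injury marker in both sections. So were Cyp24a1 and Slc20a2, which fell in whole sections. The share of all genes that were higher in these spots was not counted.

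Slc34a1, Slc34a3 and Kl were lower in Havcr1 UMI spots of both sections, at 2479 and 2858 CPM against 3077 and 3324 CPM for Slc34a1, at 1.03 and 1.53 CPM against 1.31 and 2.42 CPM for Slc34a3, and at 149 and 222 CPM against 191 and 341 CPM for Kl. Cyp24a1 stood at 44.0 and 48.1 CPM against 37.0 and 29.4 CPM, so it was higher in Havcr1 UMI spots although it fell in whole sections. Slc20a2 stood at 39.1 and 33.9 CPM against 33.8 and 29.1 CPM. Xpr1 was at 43.6 and 41.7 CPM against 43.1 and 42.0 CPM, with no common direction. No test was made, since spots of a section are not replicates, and the part of depth in these values was not tested.

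Around the 9 genes, other genes of the pathway were taken from lists and tested over whole sections, where 67.1% of all genes were called. Of 9 listed receptors and hormones of parathyroid hormone and FGF23, 7 were tested, 2 higher and 2 lower. Fgfr4 went from 26.2 and 25.3 CPM to 16.5 and 16.6 CPM (log2 difference -0.64, SE 0.06, adjusted p = 0.000109) and Fgfr3 from 29.9 and 30.1 CPM to 21.9 and 19.5 CPM (log2 difference -0.53, SE 0.07, adjusted p = 0.000600). Fgfr1, a receptor that pairs with Klotho in FGF23 signalling, was higher at 0.43 (SE 0.07, adjusted p = 0.00119). Klb, the partner of other endocrine FGFs, was called higher from 0 and 0.0405 CPM to 0.699 and 1.59 CPM. Fat markers summed to 2.09 and 16.2 CPM in Control and to 1042 and 1925 CPM in Uox_KO. The part of fat in the Klb values was not tested. Pth1r, the parathyroid hormone receptor, stood at 724 and 744 CPM against 647 and 668 CPM and was not called (log2 difference -0.16, SE 0.07, adjusted p = 0.0847). Fgf23 and Pth had 0 UMIs in all 4 sections, which allows levels of up to 0.0278 to 0.0557 CPM, and neither hormone is known to be made mainly by the kidney.

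The scaffold that holds the carriers in the brush border was lower in 5 of 6 genes. Pdzd3 went from 99.1 and 102 CPM to 44.0 and 40.7 CPM (log2 difference -1.25, SE 0.06, adjusted p = 1.08e-05), Pdzk1 from 913 and 900 CPM to 509 and 485 CPM (log2 difference -0.87, SE 0.07, adjusted p = 7.16e-05), and Slc9a3r1, which encodes NHERF1, from 331 and 321 CPM to 234 and 234 CPM (log2 difference -0.48, SE 0.06, adjusted p = 0.000561). Ezr, the link to actin, stood at 246 and 248 CPM against 232 and 252 CPM. The median of the list was -0.51. Of the 4 type I carriers, which also carry urate and other anions, 3 were lower and 1 was higher. Slc17a1 gave -1.08 (SE 0.07, adjusted p = 2.42e-05), Slc17a3 -0.74 (SE 0.08, adjusted p = 0.000212) and Slc17a4 -2.35 (SE 0.18, adjusted p = 5.43e-05). The higher gene was Slc17a2, from 0.0588 and 0.0506 CPM to 0.166 and 0.211 CPM.

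The 7 genes of vitamin D uptake and activation had a median log2 difference of -0.82, with 5 called lower and 1 called higher. Lrp2, the megalin receptor that takes up vitamin D with its carrier protein, went from 1151 and 1060 CPM to 434 and 457 CPM (log2 difference -1.31, SE 0.08, adjusted p = 2.09e-05). Its partner Cubn gave -0.97 (SE 0.07, adjusted p = 2.96e-05) and Cyp27a1, a mitochondrial sterol hydroxylase, -0.82 (SE 0.06, adjusted p = 3.94e-05). Gc, the gene of the vitamin D carrier protein itself, was higher at 3.50 (SE 0.37, adjusted p = 0.000201), from 6.74 and 5.49 CPM to 95.1 and 43.2 CPM.

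The receptor gene Vdr went from 196 and 199 CPM to 91.6 and 106 CPM (log2 difference -1.0, SE 0.08, adjusted p = 6.86e-05). Of its 3 partners, Rxra was lower at -0.34 (SE 0.06, adjusted p = 0.00156), Rxrg was higher from 0.129 and 0.142 CPM to 1.03 and 1.53 CPM (log2 difference 3.22, SE 0.31, adjusted p = 0.000148), and Rxrb was not called. Of 7 calcium and vitamin D target genes, 2 were higher, 1 lower and 4 not called. Casr, the calcium sensor, gave -0.68 (SE 0.11, adjusted p = 0.00183), Atp2b1, a calcium pump, 0.30 (SE 0.06, adjusted p = 0.00557), and Trpv6, a calcium channel, 0.74 (SE 0.24, adjusted p = 0.0278). The connecting tubule genes Calb1, S100g, Slc8a1 and Trpv5 overlapped between groups, with Uox_KO section 2 above Uox_KO section 1 in each, the same order of the Uox_KO sections that Kl showed.

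Of 3 proteases known to shed Klotho, Adam17 (log2 difference 0.49, SE 0.06, adjusted p = 0.000380) and Adam10 (0.39, SE 0.06, adjusted p = 0.000937) were higher and Bace1 (0.18, SE 0.09, adjusted p = 0.120) was not called. Of 7 response genes of FGF and ERK signalling, 4 were higher and 1 lower. Egr1 went from 1.59 and 1.46 CPM to 16.5 and 15.9 CPM (log2 difference 3.41, SE 0.09, adjusted p = 1.35e-06) and Spry1 gave 0.59 (SE 0.07, adjusted p = 0.000345), while Etv5 gave -0.69 (SE 0.07, adjusted p = 0.000170). Egr1 answers many stimuli and is not particular to FGF.

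Of 6 genes of inositol pyrophosphates, the ligands of the exporter, and of Xpr1 partners, 2 were lower and 4 not called. Kidins220, whose protein binds the exporter, went from 159 and 163 CPM to 121 and 119 CPM (log2 difference -0.42, SE 0.06, adjusted p = 0.000706). Ip6k2 gave -0.72 (SE 0.09, adjusted p = 0.000587), and Ip6k3 gave 0.62 (SE 0.28, adjusted p = 0.0889) and was not called.

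Of 11 tested genes of pyrophosphate and mineralisation, 6 were higher and 4 lower. Spp1, which encodes the crystal-binding protein osteopontin, went from 493 and 557 CPM to 7543 and 7091 CPM (log2 difference 3.80, SE 0.11, adjusted p = 1.88e-06). Mgp, an inhibitor of calcification, went from 209 and 186 CPM to 2110 and 1621 CPM (log2 difference 3.24, SE 0.15, adjusted p = 6.99e-06). Stc2, a stanniocalcin, went from 0.988 and 1.08 CPM to 9.58 and 8.20 CPM (log2 difference 3.10, SE 0.13, adjusted p = 5.93e-06). Fibroblast and injured tubule markers were higher in the same sections, and their part in these values was not tested.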

How the data were processed

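Kidney sections of 2 Uox_KO and 2 Control mice were measured with Visium. The authors deposited unnormalized UMI counts for each spot. The submitters' processing notes name Space Ranger 1.3.1 and mm10. Replicate numbers follow the labels, and nothing in them pairs mice across genotypes. The deposited file names number the sections otherwise than the labels, and the labels do not give the slides. Section totals ran from 53897511 to 107962997 counts.

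Counts were summed per section, or per section and marker set, and entered edgeR 4.0.16 in R 4.3.3 (filterByExpr, TMM scaling, quasi-likelihood F test, Benjamini-Hochberg over all genes, threshold 0.05). CPM use TMM-scaled totals within each fit, so levels are compared within a fit only. Ratios, Havcr1 values, marker sums in CPM and the limits for 0 UMIs use unscaled totals, so they are not on the scale of the other CPM. The filter on low counts can be met by the sections of 1 group alone, as by Uox_KO for Klb. Sets needed 20 spots in every section. The genes named are the 9 genes, the 3 genes with the smallest p of each pathway list and the 3 most alike in the Control pattern. The 9 genes and the lists were chosen with earlier results of these data known. Other genes named among a list were chosen after their values were seen. Alternatives were RLE scaling, DESeq2 1.42.0, no filter, left-out sections and spots, thinning and other set sizes. On simulated counts with known changes in 1 set, the test across sets recovered 67.0% of genes changed 4-fold and 38.4% of those changed 2-fold (13998 genes). Positions and promoter windows are from RefSeq tables of GRCm38.p6.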

Additional observations from a re-analysis of the deposited data

Results flagged for a closer look

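The genotype difference of 5 of the 9 genes differed between the marker sets by the test of the difference itself (edgeR, adjusted over all 13998 genes tested, 32.4% of which were called). Kl had an adjusted p of 3.53e-11, with values from -3.00 in the thin limb and inner medulla set to 0.22 in the connecting tubule set. Slc34a1 had an adjusted p of 1.71e-07, with values from -3.11 in the thin limb and inner medulla set to -0.36 in S1. Cyp24a1 had an adjusted p of 2.75e-07, with values from -2.42 in the intercalated cell set to -0.57 in S1. Xpr1 had an adjusted p of 4.01e-05, with values from -1.0 to 0.02, and Slc20a2 had an adjusted p of 0.00476, with values from -0.65 to 0.10. The calls of Xpr1 and Slc20a2 were lost with sets of 5% of the spots. The marker shares of the sets differ between genotypes, and the thin limb and inner medulla set differs in zone. Their part in these differences was not tested.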

How the results depend on the processing

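Over whole sections, all 9 genes kept their direction and their call under every alternative run, 135 values in all. The widest spans of the log2 difference were 1.48 to 2.58 for Slc34a2, -4.71 to -3.89 for Slc34a3 and -1.85 to -1.04 for Kl. The count of all genes called ran from 8915 to 11135. With a replicate block over whole sections, 11116 genes were called and all 9 genes kept their call. The block called 58 of the 67 set tests against 55 without it, and the 3 gained were Kl in the distal convoluted tubule (-0.34) and intercalated cell (-0.74) sets and Xpr1 in the distal convoluted tubule set (-0.33). The numbers pair nothing by the labels, and same-numbered sections deviated together only weakly (r = 0.0899).

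Within sets, 548 of the alternative values kept direction and side of the threshold, 33 lost the call, 11 gained it and 9 changed sign, all 9 of them values not called in the reported fit. For Kl, leaving out 1 section gave -0.75 to 0.06 in the distal convoluted tubule set, -0.98 to 0.14 in the principal cell set, -1.75 to 0.24 in the intercalated cell set and -0.23 to 0.55 in the connecting tubule set. In S1 it gave -0.01 to 0.05 for Xpr1 and -0.06 to 0.27 for Slc20a2. Sets of 5% gave -0.18 for Xpr1 in S1, and sets of 20% gave -0.04 for Xpr1 and -0.08 for Slc20a2 in S1. When 1 section was left out, the lone section was assumed to vary like the other group.

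In the Control pattern, 248 of the alternative values kept direction and side of the threshold, 8 lost the call and 6 gained it. The lost calls were those of Cyp24a1 given above and that of Xpr1 in the connecting tubule set. Calls were gained for Slc34a1, Slc34a2, Slc34a3 and Slc20a1. A further 17 values near 0 changed sign, none of them called in the reported fit. RLE scaling and no filter gave -0.01 and -0.02 for Slc34a1 in the principal cell set, and no filter gave 0.01 for Slc20a2 in S1. Sets of 5% gave -0.03 and 0.01 for Slc20a2 in the glomerulus and S1 sets, -0.25 for Slc34a3 in the connecting tubule set, -0.15 for Slc20a1 and 0.03 for Xpr1 in the principal cell set and -0.04 for Cyp24a1 in the intercalated cell set. Sets of 20% gave 0.01 for Slc34a1 in the glomerulus set, -0.05 for Slc20a1 and 0.08 for Slc20a2 in S1, -0.00 for Slc20a2 in the thick ascending limb set, -0.04 for Slc34a1 and -0.03 for Slc20a1 in the principal cell set, and -0.01 for Xpr1 and -0.01 for Cyp24a1 in the intercalated cell set. The cause of these changes was not tested.

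The main limits are 2 mice per group, Uox_KO sections with fewer UMIs, zones that differ between sections and spots that hold several cell types. Slc34a2 and Cyp27b1 rest on few UMIs in each set.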
